A study of Mus musculus with 2 samples.

Results

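Inside protein-coding genes, away from their ends, 2826 Hdac1 islands shared sequence with an Hdac2 island in cultured mouse nephron progenitor cells. They were chosen from the 30182 islands of the Hdac1 library by position, width and overlap. Each lies on chromosomes 1 to 19, is narrower than 5 kb, shares at least 1 bp with an Hdac2 island and overlaps the RefSeq span of a protein-coding gene. Each also lies more than 1 kb from the first base and from the last base of every protein-coding gene. The islands make up 9.52% of the 29695 autosomal Hdac1 islands, and the 2793 Hdac2 islands that meet them make up 14.4% of the 19450 autosomal Hdac2 islands. Overlap, place and width chose the islands, so those measures, and the island values behind them, are given as descriptions.

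The cells were nephron progenitors isolated from kidneys of wild-type mouse embryos at E16.5, grown in culture and fixed with formaldehyde, and both antibodies were used on the same kind of cell with no treatment. There was 1 library per antibody and no replicate. The names of the deposited lists give different microgram amounts for Hdac1 and Hdac2, without saying of what. The immunoprecipitations may therefore not be matched, and how this bears on values, widths and overlap was not tested. Nothing used here says whether both libraries came from 1 culture or how many embryos were pooled, and read depth is unknown. With 1 library each, nothing here was tested between antibodies, and 95% Wilson intervals of shares cover counting error only.

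Hdac1 and Hdac2 are closely related class I histone deacetylases that remove acetyl groups from histone tails and work within corepressor complexes such as CoREST, NuRD and Sin3. They have no DNA-binding domain of their own and are brought to chromatin by transcription factors and corepressors, at active as well as at silent genes. Long introns of developmental genes are known to hold enhancers and alternative promoters, so an island inside a gene may lie over a regulatory element of that gene or of another. Nephron progenitors are the Six2-expressing mesenchymal cells of the fetal kidney that either renew or, in response to Wnt signals, turn into the epithelium of the nephron.

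The data bear on sequence where an island covers a transcription start that lies within the gene, since RefSeq gives the bases around annotated starts. Of the listed genes described below, 31 with a start of their own inside one of the islands were considered. Their windows run from 250 bases before to 50 bases after the start in GRCm38.p6, the assembly of mm10, and are printed 5′ to 3′ along the transcribed strand with every CG dinucleotide in capitals. The first 5 are those under the islands with the lowest Hdac1 values, the strongest calls, and the last 3 are those with the fewest CG dinucleotides. This choice was made after the values were seen.
Axin2, chr11:108920099-108920398, plus strand: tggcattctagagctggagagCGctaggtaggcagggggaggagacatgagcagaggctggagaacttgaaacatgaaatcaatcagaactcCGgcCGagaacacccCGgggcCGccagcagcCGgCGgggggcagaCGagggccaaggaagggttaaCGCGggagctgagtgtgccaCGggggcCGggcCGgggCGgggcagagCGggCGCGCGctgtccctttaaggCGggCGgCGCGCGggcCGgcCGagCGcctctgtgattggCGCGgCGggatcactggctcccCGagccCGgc
Brd3, chr2:27475349-27475648, minus strand: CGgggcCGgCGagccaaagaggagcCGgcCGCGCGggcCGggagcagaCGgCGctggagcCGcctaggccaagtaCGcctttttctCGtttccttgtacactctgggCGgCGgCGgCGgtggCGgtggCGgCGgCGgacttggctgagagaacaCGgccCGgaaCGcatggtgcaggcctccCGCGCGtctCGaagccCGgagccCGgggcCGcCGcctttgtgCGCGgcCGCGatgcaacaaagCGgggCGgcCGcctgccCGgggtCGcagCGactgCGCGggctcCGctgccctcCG
Rbpj, chr5:53590096-53590395, plus strand: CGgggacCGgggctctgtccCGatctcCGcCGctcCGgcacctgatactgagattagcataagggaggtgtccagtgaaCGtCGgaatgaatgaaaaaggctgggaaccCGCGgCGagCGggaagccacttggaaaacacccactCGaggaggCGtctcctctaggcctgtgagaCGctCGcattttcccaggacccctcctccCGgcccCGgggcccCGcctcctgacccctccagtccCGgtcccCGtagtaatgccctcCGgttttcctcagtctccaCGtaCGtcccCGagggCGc
Kdm2b, chr5:122900318-122900617, minus strand: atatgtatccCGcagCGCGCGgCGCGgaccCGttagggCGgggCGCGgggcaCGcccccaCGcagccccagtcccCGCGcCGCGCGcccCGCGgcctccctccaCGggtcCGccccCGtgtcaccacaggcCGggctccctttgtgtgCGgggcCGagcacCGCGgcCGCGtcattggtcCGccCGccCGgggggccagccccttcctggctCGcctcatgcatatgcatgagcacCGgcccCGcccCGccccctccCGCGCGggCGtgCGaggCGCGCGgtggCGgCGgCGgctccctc
Slit2, chr5:47982905-47983204, plus strand: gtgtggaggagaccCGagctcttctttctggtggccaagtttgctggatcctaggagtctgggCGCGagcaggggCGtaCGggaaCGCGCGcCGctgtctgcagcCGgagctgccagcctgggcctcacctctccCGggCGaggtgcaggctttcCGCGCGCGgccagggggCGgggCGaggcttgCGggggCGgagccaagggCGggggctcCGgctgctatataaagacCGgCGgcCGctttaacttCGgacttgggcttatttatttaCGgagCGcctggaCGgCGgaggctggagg
Lsamp, chr16:41532576-41532875, plus strand: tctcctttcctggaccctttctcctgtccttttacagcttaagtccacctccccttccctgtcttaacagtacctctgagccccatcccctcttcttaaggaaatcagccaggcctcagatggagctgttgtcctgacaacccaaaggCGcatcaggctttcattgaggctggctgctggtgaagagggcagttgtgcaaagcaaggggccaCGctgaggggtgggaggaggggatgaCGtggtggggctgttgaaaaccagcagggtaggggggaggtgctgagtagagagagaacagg
Cald1, chr6:34709194-34709493, plus strand: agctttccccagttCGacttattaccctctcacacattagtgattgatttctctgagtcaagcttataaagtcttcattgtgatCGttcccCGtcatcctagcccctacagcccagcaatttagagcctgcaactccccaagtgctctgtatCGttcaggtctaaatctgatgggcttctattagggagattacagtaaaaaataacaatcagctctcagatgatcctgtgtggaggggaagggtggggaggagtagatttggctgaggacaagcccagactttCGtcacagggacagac
Frem1, chr4:83021053-83021352, minus strand: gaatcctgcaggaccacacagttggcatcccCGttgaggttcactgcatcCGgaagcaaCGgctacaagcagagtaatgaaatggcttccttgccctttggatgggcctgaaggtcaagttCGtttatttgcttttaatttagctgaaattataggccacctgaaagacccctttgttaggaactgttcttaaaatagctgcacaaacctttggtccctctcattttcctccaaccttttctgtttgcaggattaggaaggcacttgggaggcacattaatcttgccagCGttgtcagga

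The windows differ in CG content. That of Kdm2b, a histone demethylase that binds unmethylated CpG, held 47 CG dinucleotides and was 79.7% G or C. That of Brd3, a reader of acetylated histones, held 46 CG dinucleotides, with an observed over expected ratio of 1.10. Axin2, a scaffold of the beta-catenin destruction complex and itself a Wnt target, had 31 CG dinucleotides, Slit2, a guidance ligand that limits ureteric bud outgrowth, 30, and Rbpj, the DNA-binding factor of the Notch pathway, 26. In contrast, the window of Lsamp, a neuronal adhesion molecule, held 3 CG dinucleotides, and those of Cald1, an actin-binding protein, and Frem1, a basement membrane protein, held 5 each.

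The islands over these starts had lower Hdac1 than Hdac2 values, as did the lists as a whole. Over all islands of each library the median value was 1.11e-16 for Hdac1 and 1.96e-08 for Hdac2. The deposited value is a p-value or a q-value, which of them is not stated, so a smaller number is a stronger call, and values of the libraries depend on their unknown depths. Axin2 had an Hdac1 value of 1.64e-282 over chr11:108919801-108923600 and an Hdac2 value of 4.14e-27. Brd3 had 7.48e-153 and 4.57e-10, Rbpj 6.58e-143 and 6.56e-32, Kdm2b 6.30e-134 and 3.81e-17, and Slit2 3.47e-116 and 5.58e-11, Hdac1 first in each pair. For the windows with few CG dinucleotides, Cald1 had 3.23e-49 and 4.57e-10, Frem1 1.66e-22 and 8.31e-10, and Lsamp 3.71e-16 and 2.08e-06. The first 5 were picked for their Hdac1 values, so nothing is read from the difference between the sets or between the antibodies.

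The shared islands inside genes were 2.2 kb wide at the median, the middle 50% from 1.4 to 3.0 kb and all from 0.4 to 4.8 kb. Their Hdac2 partners had a median width of 2.0 kb. For comparison, 5014 shared islands below 5 kb lay at gene ends, with a median width of 2.6 kb, and 2916 between genes, with 2.0 kb. A further 6176 Hdac1 islands inside genes had no Hdac2 island, with 1.6 kb. The inside islands therefore stood between the shared islands of gene ends and those between genes in width.

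The median Hdac1 value was 3.37e-18 inside genes, against 3.04e-65 for shared islands at gene ends, 4.24e-16 between genes and 2.51e-09 for Hdac1 islands inside genes without Hdac2. The Hdac2 partners did not follow that order. Their median value was 2.10e-08 inside genes, 4.20e-08 at gene ends and 4.48e-09 between genes. The interquartile ranges of the Hdac2 values overlapped across these places (9.19e-12 to 3.48e-06 inside, 2.53e-11 to 8.36e-06 at ends and 1.51e-12 to 1.60e-06 between genes).

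Within a pair, the Hdac2 island covered a median of 80% of the bases of the Hdac1 island. In 835 of 2826 pairs (29.5%, 27.9 to 31.3) it covered the whole Hdac1 island, and in 877 (31.0%, 29.4 to 32.8) both edges lay within 400 bp of each other. The centres lay a median of 0.4 kb apart. The Hdac2 island was narrower than the Hdac1 island in 48.5% of pairs, wider in 43.8% and of the same width in 7.75%. At gene ends it was narrower in 62.6% of pairs. A single Hdac2 island met the Hdac1 island in 2805 pairs, while 21 Hdac1 islands met 2, and 54 Hdac2 islands reached across 2 neighbouring Hdac1 islands of the set. Of the Hdac2 partners, 82 were 5 kb or wider.

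Of all autosomal Hdac1 islands below 5 kb, 38.0% overlapped an Hdac2 island. Inside genes the share was 31.4% (2826 of 9002, interval 30.4 to 32.4), below the 45.7% (44.8 to 46.7) at gene ends and the 34.9% (33.9 to 35.9) between genes. The order turned when islands were set beside others of like Hdac1 value. In 9 of 10 deciles of Hdac1 value, counted from the lowest value, islands inside genes overlapped Hdac2 more often than islands at gene ends. In decile 2 the shares were 80.8% inside (75.9 to 84.9), 61.4% at ends (59.5 to 63.4) and 87.2% between genes (79.9 to 92.1). In decile 5 they were 47.2% (44.1 to 50.3), 21.9% (19.4 to 24.7) and 54.7% (51.5 to 57.8). The exception was decile 10, the weakest islands, with 13.3% inside and 15.3% at ends. Inside and end islands had the same median width in deciles 2 and 5, 2.4 kb and 1.8 kb.

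**Figure D1:**
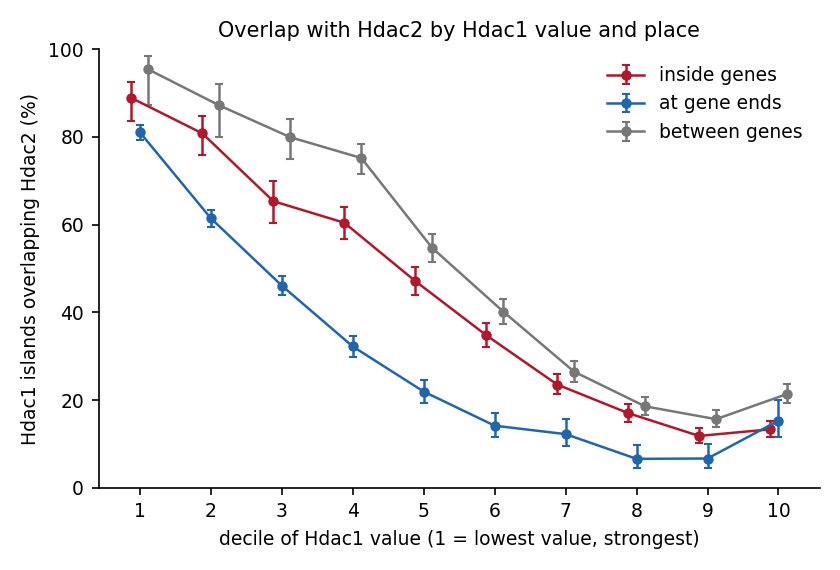
Percent of autosomal Hdac1 islands below 5 kb that overlap an Hdac2 island, by decile of Hdac1 value (1 is the strongest), for islands inside genes, at gene ends and between genes, with 95% Wilson intervals as bars. The line for islands inside genes runs above that for gene ends in 9 of 10 deciles, as with 47.2% against 21.9% in decile 5, and below that for islands between genes.

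Of the shared inside islands, 489 (17.3%, 16.0 to 18.7) covered an annotated transcription start even though they lay away from the gene's outer ends. The share was 9.49% (8.78 to 10.2) among Hdac1 islands inside genes without Hdac2, which were narrower, 78.0% among shared islands at gene ends and 6.34% between genes. In 425 islands the start belonged to the host gene itself. There, 243 covered its most upstream listed start and 182 only a start further downstream. The other 64 covered only the start of a gene for a long non-coding RNA. The table of starts held 79.6% of autosomal protein-coding genes, so some islands over a start are counted as without one.

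Islands over a start had lower Hdac1 values than the rest, while their Hdac2 values lay close together. With a start the median Hdac1 value was 7.06e-55 and the median width 2.6 kb. Without a start, in the 1756 islands whose host was in the table, these were 1.55e-15 and 2.0 kb. The median Hdac2 value was 2.93e-08 with a start and 2.12e-08 without, a difference of 0.14 on the log10 scale beside a difference of -39.3 for Hdac1. That small Hdac2 difference changed sign, to -0.13, when islands of any width were taken. Of the islands in the first decile of Hdac1 value 61.9% covered a start, and of those in the tenth 1.70%. Across all shared inside islands the values of the antibodies had a Spearman rank correlation of 0.40 (n = 2826), a description over islands that share 2 libraries, with 0.35 for islands over a start and 0.47 for the rest.

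**Figure D2:**
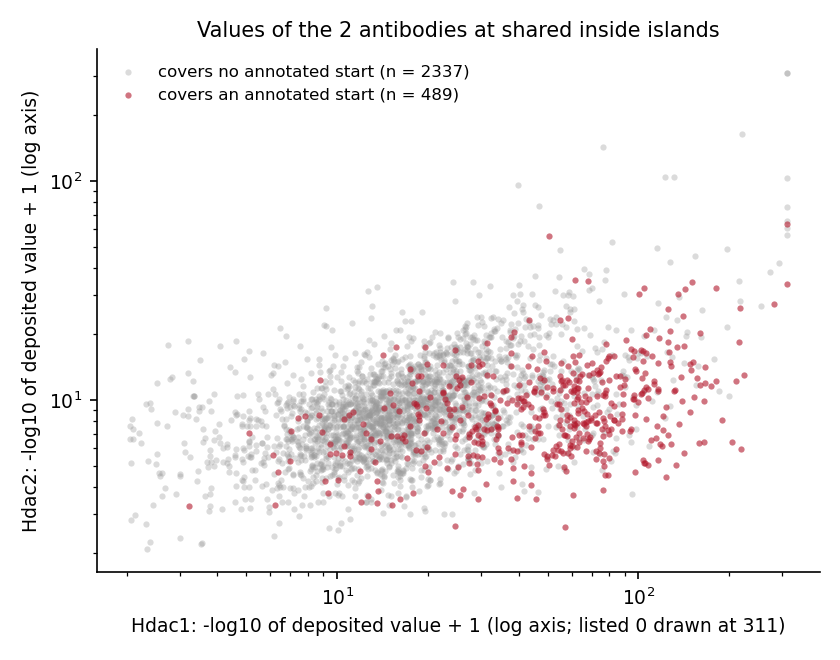
Each of the 2826 shared inside islands by its deposited Hdac1 value (horizontal) and that of its Hdac2 partner (vertical), both as -log10 plus 1 on log axes, so stronger calls lie further right and higher; red points are the 489 islands over an annotated start, grey points the rest. Red points lie to the right, with a median Hdac1 value of 7.06e-55, but no higher than grey points, with a median Hdac2 value of 2.93e-08.

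The sequence around starts differed with the islands over them. Of annotated starts of protein-coding genes, 3708 were internal, away from every gene end. Those inside a shared island (535) had a median of 24 CG dinucleotides per 300-base window, 64.3% GC and an observed over expected CpG ratio of 0.78. Those under an Hdac1 island without Hdac2 (554) had 15.5 CG dinucleotides, 58.7% GC and a ratio of 0.62, and those with no Hdac1 island (1858) had 4, 49.3% and 0.23. The other 761, under an Hdac1 island that reached a gene end or was 5 kb or wider, had 22 CG dinucleotides, 63.3% and 0.77, close to those in shared inside islands. A shared island covered 1.94% (1.29 to 2.92) of internal starts with a ratio below 0.25 and 33.1% (30.03 to 36.3) of those at 0.75 or more. For Hdac1 islands without Hdac2 the share was highest in the class from 0.5 to 0.75, at 28.0% (24.8 to 31.4), and 19.6% (17.1 to 22.3) at 0.75 or more. The Axin2, Brd3, Kdm2b, Slit2 and Rbpj windows printed above belong to the class with the highest ratio, and the Lsamp window, with 0.13, to the lowest.

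**Figure D3:**
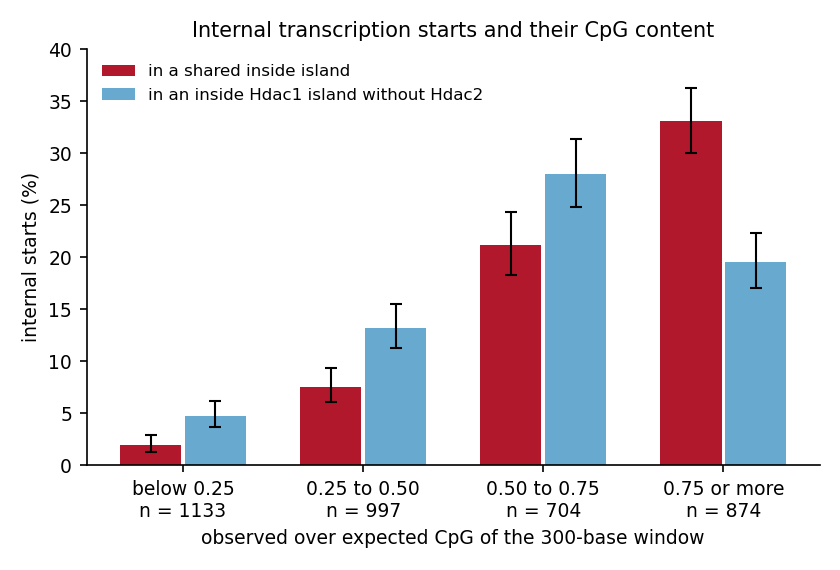
Percent of internal annotated starts of protein-coding genes covered by a shared Hdac1 and Hdac2 island or by an Hdac1 island without Hdac2 inside genes, in 4 classes of the observed over expected CpG ratio of the 300-base window; bars start at 0 and carry 95% Wilson intervals. Coverage by shared islands goes from 1.94% in the lowest class to 33.1% in the highest.

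Short motifs in the same windows were searched on both strands. The GC-box GGGCGG, which Sp and Klf factors bind, occurred in 68.4% of windows under a shared island, 56.1% under an Hdac1 island without Hdac2 and 14.3% under no Hdac1 island, and in 36.0% of all autosomal start windows. Motifs without a CG were also counted. CANNTG, the E-box, occurred in 61.5% of windows under a shared island, 68.1% under an Hdac1 island without Hdac2 and 72.2% of all windows. TGANTCA, the AP-1 motif, occurred in 5.42%, 5.596% and 7.84%, and CTTTGA, the core of Tcf/Lef sites, in 7.85%, 12.8% and 15.9%. GGAATG, the Tead motif, occurred in 14.0%, 12.3% and 14.6%. TCAGGTTTC, a Six2-type motif, occurred in 0 of 535 windows under a shared island and in 0.427% of all. Under an Hdac1 island without Hdac2 it occurred in 4 of 554. At so low a share, this number of windows cannot show a difference. Under no Hdac1 island the shares were 79.0% for CANNTG, 10.2% for TGANTCA, 18.9% for CTTTGA and 18.1% for GGAATG. Each was higher than under either kind of island. GC content moved with these shares, and its part in them was not tested.

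Most islands lay far from any end. The nearest end of the host gene was a median of 30.8 kb away (interquartile range 9.95 to 75.04). Over the 2234 islands whose host had a listed start, 79.1% of all, the nearest one was a median of 32.9 kb away, and 25.8% of these islands were more than 100 kb from it. Islands without a start were spread almost evenly over the length of the gene. With each gene cut into 5 equal parts, the parts held between 316 and 382 of the 1756, and for Hdac1 islands without Hdac2 between 717 and 961 of 4269. Across chromosomes the share of inside Hdac1 islands that met Hdac2 ran from 27.4% on chromosome 17 (23.2 to 32.1) to 35.3% on chromosome 6 (31.3 to 39.6).

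Transcripts other than the host's were also crossed. Non-coding genes overlapped 332 of the islands (11.7%), 299 of them long non-coding RNA genes. Among 919 autosomal miRNA hairpins with a RefSeq sequence, 4 lay in a shared inside island, and their mature forms are printed 5′ to 3′ as the small RNAs encoded there, with the seed, bases 2 to 8, in capitals.
mmu-miR-1895, chr3:134240515-134240536, minus strand: cCCCCGAGgaggacgaggagga
mmu-miR-148a-3p, chr6:51269829-51269850, minus strand: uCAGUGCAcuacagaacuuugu
mmu-miR-148a-5p, chr6:51269867-51269888, minus strand: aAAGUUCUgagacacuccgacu
mmu-miR-1904, chr13:109903819-109903840, plus strand: gUUCUGCUccucuggagggagg
mmu-miR-8119, chr4:129557756-129557775, minus strand: gAGGAGAGggagcuaggguc
None of these 5 seeds is shared. The island over Mir1895, in Cxxc4, a CXXC zinc-finger inhibitor of Wnt signalling, had an Hdac1 value of 1.15e-68 and an Hdac2 value of 1.63e-19. That over Mir1904, in Pde4d, a cAMP phosphodiesterase gene, had 3.99e-49 and 1.94e-19. That over Mir148a, in the gene Gm38821, had 4.42e-38 and 6.39e-05, and that over Mir8119, in Lck, a T-cell kinase gene, 6.97e-11 and 0.000146. The Mir8119 island was in decile 7 of Hdac1 value, weaker than the median shared inside island, and the other 3 were stronger than it.

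The islands lay in 1843 of 20665 autosomal protein-coding genes (8.92%). Host genes were long, with a median of 106 kb against 15.2 kb for all others, and over all genes there were 2.90 islands per Mb of gene. Of genes up to 10 kb 0.463% held an island, of those from 10 to 30 kb 4.18%, from 30 to 100 kb 12.2%, from 100 to 300 kb 37.5% and above 300 kb 54.6%. Per Mb of gene the classes differed less, from 1.10 in the shortest through 2.38 and 2.61 to 3.87 between 100 and 300 kb and 2.62 above. Genes with 1 island numbered 1323 and those with 2 numbered 297. Another 223 held 3 or more, together 979 of the islands, while 26 islands lay in more than 1 gene and 3 in clusters of over 10 overlapping genes. In the 520 genes with 2 or more, neighbouring islands were a median of 27.5 kb apart, and 298 of 1068 gaps (27.9%) were within 10 kb.

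Over genes of all lengths, host genes carried islands at their ends more often than other genes did. An Hdac1 island of any width lay within 1 kb of an end in 71.4% of hosts (69.3 to 73.4) and 61.8% of other genes (61.1 to 62.5). For Hdac2 the shares were 49.1% (46.8 to 51.3) and 31.9% (31.2 to 32.6). Gene length moved with both. The shares are also not independent of how hosts were defined. An island over a start more than 1 kb inside the span makes its gene a host and is not counted at an end. How far this shaped the shares within length classes was not tested. For Hdac1 the direction differed between length classes. Up to 10 kb Hdac1 lay at an end of 52.9% of hosts (36.7 to 68.5) and 46.4% of others (45.3 to 47.6), and from 100 to 300 kb of 77.7% (74.3 to 80.7) and 76.4% (73.8 to 78.8). From 30 to 100 kb Hdac1 lay at an end of 69.2% of hosts (65.4 to 72.8) and 74.6% of others (73.3 to 75.9), from 10 to 30 kb of 62.5% (56.4 to 68.2) and 68.5% (67.3 to 69.6), and above 300 kb of 71.5% (66.0 to 76.4) and 69.8% (63.8 to 75.3). For Hdac2 the intervals stayed apart in 4 of the 5 classes, with 17 of 34 hosts (interval 34.1% to 65.9%) and 24.2% (23.2 to 25.2) of others up to 10 kb, 49.2% (45.2 to 53.3) of hosts and 40.3% (38.9 to 41.8) of others from 30 to 100 kb, 54.9% (51.1 to 58.6) and 46.2% (43.3 to 49.1) from 100 to 300 kb, and 50.9% (45.1 to 56.6) and 30.2% (24.7 to 36.2) above. In the class from 10 to 30 kb they overlapped, with Hdac2 at 31.3% (25.9 to 37.2) of hosts and 32.7% (31.5 to 33.9) of others. No Hdac1 and no Hdac2 island lay at either outer end of 490 hosts (26.6%), among them Phactr1 with 10 inside islands. Such a host can still have an island over a start that lies inside its span, as Rbpj, Tgfb2 and Robo1 did. Over all hosts, 243 inside islands covered the most upstream listed start of the host.

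The genes with most islands were long. Lrmda, a melanocyte differentiation gene, held 22 islands over 1037 kb, and Auts2, a regulator of transcription known from brain development, 17 over 1106 kb. Foxp1, a forkhead repressor, held 16, the oxidoreductase gene Wwox 15, the Notch coactivator gene Maml3 11 and the recombination gene Rad51b 11. Phactr1, a regulator of actin and protein phosphatase 1, and Smyd3, a lysine methyltransferase gene, held 10 each. Kif26b, a kinesin-family gene needed for kidney development, and Arhgap26, a GTPase-activating protein gene, held 9 each. Per Mb of gene Foxp1 had 26.8, Maml3 26.3, Kif26b 22.3, Phactr1 21.8 and Lrmda 21.2. They were chosen for their number of islands.

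In Lrmda the Hdac1 values ran from 6.99e-70, at chr14:22165601-22169800, to 7.81e-05, with Hdac2 values of 3.11e-32 and 6.66e-06 at the same islands. In Phactr1 they ran from 7.90e-63 at chr13:42915601-42920000 to 1.20e-07, and the lowest Hdac2 value, 4.12e-33, belonged to a neighbour at chr13:43004201-43006800 with an Hdac1 value of 5.79e-40. Strong and weak islands thus stood in the same gene, and the strongest for 1 antibody was not always the strongest for the other.

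Signalling genes are given by pathway from lists of 665 genes in 20 groups, of which 660 were in the annotation and 215 held an island (8.92% of all genes did). Because longer genes hold more islands, each list is given by its count and by its islands per Mb, beside 2.90 for all genes. Of 47 Wnt pathway genes, with a median length of 46.2 kb, 14 held an island (29.8%, 18.7 to 44.0), and these 31 islands made 9.39 per Mb, or 7.33 without Tcf7l1. Ligands with an island were Wnt5b, with 2, and Wnt11, and the R-spondins Rspo1 and Rspo3 had 1 each. Among receptors, the tyrosine kinases of the non-canonical branch Ror1 and Ror2 held 4 each and Ryk 1, the co-receptor Lrp6 1 and the R-spondin receptor Lgr4 2. Znrf3, the ubiquitin ligase that removes Wnt receptors, held 2, Kremen1, a Dkk receptor, 1 and Axin2 1. Tcf7l1, which represses Wnt targets in the absence of beta-catenin, held 8 and its relative Tcf7l2 held 2.

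In Tcf7l1 the strongest island, at chr6:72745601-72749800, had an Hdac1 value of 4.36e-36 and an Hdac2 value of 3.16e-12. Another 7 lay between 91.6 and 132 kb from the listed start, with Hdac1 values from 1.57e-21 to 0.00254 and Hdac2 values from 4.53e-13 to 0.00836. They formed a cluster toward the 3′ end of the gene, and none covered a start of Tcf7l1. Those at chr6:72654401-72656800 and chr6:72676201-72679800 covered a start of a long non-coding RNA gene. In Ror2 the island at chr13:53203801-53207000 had a lower Hdac2 than Hdac1 value, 5.95e-28 against 2.92e-24. Ryk had 7.41e-48 and 2.75e-12, and Wnt11 6.12e-41 and 1.22e-06 over its own start.

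The Notch list had 5 of 25 genes with an island (interval of the share 8.86% to 39.1%) and 9.34 islands per Mb. That density fell to 4.28 without Maml3, which held 11 of the 17 islands. The receptor gene Notch2 held 2, the DNA-binding factor Rbpj 1, the coactivators Maml2 and Maml3 2 and 11, and the effector Heyl 1. In Maml3 the strongest island, at chr3:51778201-51780400, had 1.73e-68 for Hdac1 and 3.48e-37 for Hdac2, and next was chr3:52033001-52034800 with 3.12e-50 and 5.05e-20. The weakest, at chr3:51765801-51768000, had 0.00351 and 0.000179. All 11 lay between 15.6 and 402 kb from the listed start, so none covered it. The Heyl island had 2.52e-57 and 3.32e-21.

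**Figure D4:**
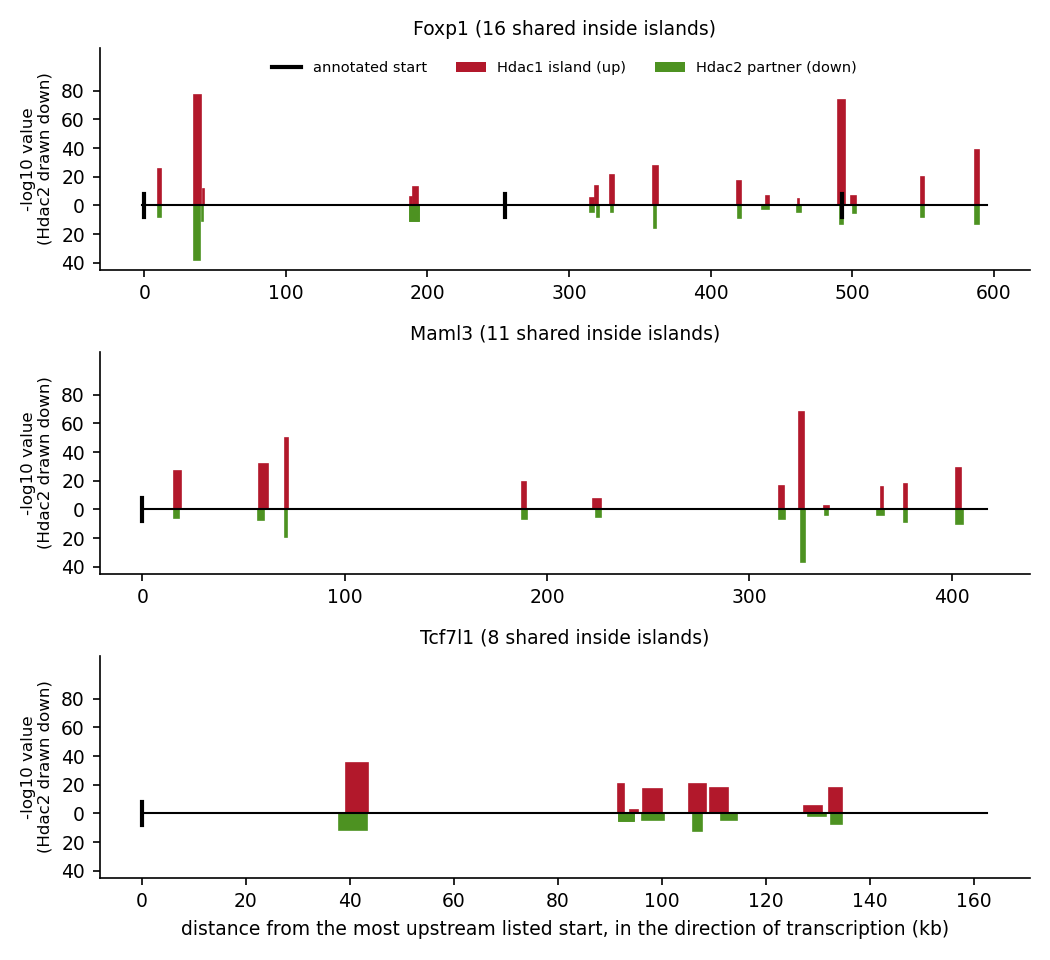
Shared inside islands along Foxp1, Maml3 and Tcf7l1, by distance in kb from the most upstream listed start; bar width is the island's width, red bars up give the -log10 of the Hdac1 value, green bars down that of the Hdac2 partner, and black ticks are annotated starts of the gene. Bars stand apart from these starts except for 1 Foxp1 island, and the 7 downstream islands of Tcf7l1 lie together. Starts of other genes are not drawn.

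Fgf, Tgf-beta and insulin pathway genes held islands at 6.55, 4.75 and 4.24 per Mb. Of 36 genes of Fgf, Gdnf and Ras-MAPK signalling 9 held an island. Fgfr1, an Fgf receptor that nephron progenitors use, held 3 with Hdac1 values of 1.87e-32, 1.52e-22 and 1.03e-11, and Fgfr2 1 with 8.29e-08. The feedback inhibitor Spred2 held 2. Of 37 Tgf-beta and Bmp genes 12 held an island, among them the ligands Tgfb2 and Bmp6, the receptors Bmpr1a, Bmpr1b, Acvr1, Acvr1b and Acvr2b, the effector Smad3 with 2, and the corepressor Ski. Bmpr1b had 1.44e-25 for Hdac1 and 7.53e-12 for Hdac2. Of 27 insulin, Igf and mTOR genes 10 held an island, among them Igf2, a fetal growth factor, with 2.58e-63 and 6.59e-12 over its own start.

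In the Hippo pathway 8 of 28 genes held an island (28.6%, 15.3 to 47.1), with 6.47 per Mb, or 3.56 without Tead1. Tead1, the DNA-binding partner of Yap and Taz, held 8 of the 16. Its Hdac1 values ran from 1.24e-23, at chr7:112743001-112746200, to 9.34e-05, and its Hdac2 values from 5.91e-09 to 0.000147. The lowest Hdac2 value belonged to the island at chr7:112872801-112875000, where the Hdac1 value was 2.15e-05. Wwtr1, which encodes Taz, held 1 island, and the atypical cadherin genes Fat1 and Fat4 held 1 and 2.

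Guidance and cytoskeleton genes were hosts in larger numbers, and they are long. Of 43 axon guidance genes, with a median length of 177 kb, 20 held an island (46.5%, 32.5 to 61.1; 4.39 per Mb). The receptor Nrp1 held 7, the Slit receptors Robo1 and Robo2 6 and 2, the ligands Slit2 and Slit3 1 and 4, and the ephrin Efna5 5. Robo1 had no island at its outer ends, but 1 inside island covered an annotated start of Robo1 and had an Hdac1 value of 4.21e-107 and an Hdac2 value of 6.54e-10. Robo2, whose signal restricts Gdnf and the ureteric bud, had 5.16e-41 and 6.16e-27 at chr16:74513001-74515600. Of 52 regulators of actin and the cytoskeleton 24 held an island (46.2%, 33.3 to 59.5; 4.69 per Mb), and of 45 integrin, basement membrane and collagen genes 15 (33.3%, 21.4 to 47.9; 3.87 per Mb), led by Itgb5 with 4.

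The highest share was in 56 long-intron developmental transcription factors, which were listed for their long introns and with earlier results of these data known. There 37 held an island (66.1%, 53.0 to 77.1), with a median gene length of 199 kb and 7.77 islands per Mb. Foxp1 held 16, Tshz2, a teashirt zinc-finger gene, 8, Creb5, a bZIP factor gene, 8, and Gli2 and Sox5 5 each. Gli2 is an effector of Hedgehog signalling and Sox5 an HMG-box factor. Without Foxp1 the list had 6.89 islands per Mb.

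In Foxp1 the strongest island was chr6:99481001-99485800, 35.2 kb from a listed start, with an Hdac1 value of 7.51e-78 and an Hdac2 value of 5.00e-39. The next, chr6:99025801-99030600, covered an internal start of Foxp1 and had 1.44e-74 and 7.42e-14. These islands were alike in Hdac1 value, and the island without a start had the lower Hdac2 value. The other 14 had Hdac1 values from 3.04e-39 to 6.66e-05. In Meis2, a Hox cofactor, the stronger island had 1.34e-55 and 5.92e-22. In Tshz2 the strongest had 4.28e-46 and 6.12e-12.

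Nuclear receptor genes had 10 of 26 hosts (38.5%, 22.4 to 57.5; 4.42 per Mb). Rora, an orphan receptor, held 6, and the retinoic acid receptor genes Rarb and Rara held 2 and 1. The strongest Rora island had 3.94e-29 and 2.60e-16. Of genes of the deacetylase complexes themselves 5 of 37 were hosts (13.5%, 5.91 to 28.0), an interval that includes the 8.92% of all genes, with 5.23 islands per Mb. Among the hosts were Zmiz1 and Rere with 3 each, the NuRD subunit gene Gatad2a with 2 and Zmynd8 with 1. Hdac1 lay at an end of all 37 (62.7% of all genes) and Hdac2 of 28 (33.4% of all genes). Of 54 other chromatin regulators 14 held an island (3.64 per Mb). Among them, Hdac4, a class IIa deacetylase, had 2.35e-76 for Hdac1 and 9.73e-08 for Hdac2 over its own start, and Dnmt3a, a de novo DNA methyltransferase, 8.07e-26 and 3.11e-16 at the stronger of 2.

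Of 29 autosomal regulators of the progenitors themselves, with a median length of 25.5 kb, 5 did (17.2%, 7.60 to 34.5). Their density was 3.20 per Mb, or 2.35 without Eya2, below the 2.90 of all genes. Hdac1 lay at an end of all 29 and Hdac2 of 24, where all genes had 62.7% and 33.4%. The hosts were Eya2 with 2 and Eya4, cofactors of Six2, Dach1, a corepressor in the same network, Meox2, a homeobox gene, and Itga8, the integrin subunit that acts upstream of Gdnf. Meox2 had 2.42e-43 for Hdac1 and 3.32e-21 for Hdac2 at chr12:37140601-37144200. Eya2 had 1.11e-30 and 9.10e-15 at the stronger island, and Dach1 1.02e-13 and 2.98e-10. Itga8 had 2.24e-15 and 3.44e-05, and Eya4 0.000141 and 1.64e-07, with the lower value in the Hdac2 list.

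The fixed markers describe occupancy, not expression, and cannot check the label of the cells directly. All 6 autosomal nephron progenitor markers (Six2, Eya1, Osr1, Sall1, Wt1 and Gdnf) had islands of both antibodies at an end, beside 62.7% of all genes for Hdac1 and 33.4% for Hdac2, and none held a shared inside island. Of 4 ureteric bud markers 3 had Hdac1 and 1 had Hdac2 at an end, of 3 stroma markers 3 and 1, and of 3 endothelium markers 1 and 0. Inside islands lay in the bud genes Wnt11 and Gata3 and in the endothelial receptor gene Kdr, whose island had 2.05e-12 and 2.81e-08. Of the wider lists of other cell types, ureteric bud had 5 of 20 genes with an island (8.54 per Mb). Stroma had 5 of 20 (5.87 per Mb), and endothelium and blood 4 of 20 (3.94 per Mb). Each was denser than the progenitor regulators, but the bud, endothelium and progenitor lists held only 6 islands each, and stroma 12. The order was not stable. With only islands of lower value kept in each library, the bud and endothelium lists fell below the density of all genes (1.01 per Mb). The progenitor list, with 2 of 29 hosts there, stayed above it. The part of other cells in these islands was not tested.

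Genes of later nephron stages were hosts at like counts. Of 28 renal vesicle and segment genes, with a median length of 9.11 kb, 5 held an island (17.9%, 7.88 to 35.6; 5.25 per Mb), namely Lhx1, Irx2, Cdh6, Lmx1b and Greb1. Cdh6, a cadherin of the early proximal tubule, had 3.57e-61 and 1.12e-14 over its own start, and Irx2, an Iroquois factor, 2.45e-35 and 1.11e-10. Of 23 podocyte and tubule genes 6 held an island (26.1%, 12.5 to 46.5; 2.36 per Mb), among them the podocyte scaffold gene Magi2 with 1.06e-91 and 1.81e-12. Liver, muscle and neuronal genes had 9 of 30 hosts (interval of the share 16.7% to 47.9%), but at 0.974 islands per Mb the lowest density of the 20 lists, in genes with a median length of 90.1 kb.

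**Figure D5:**
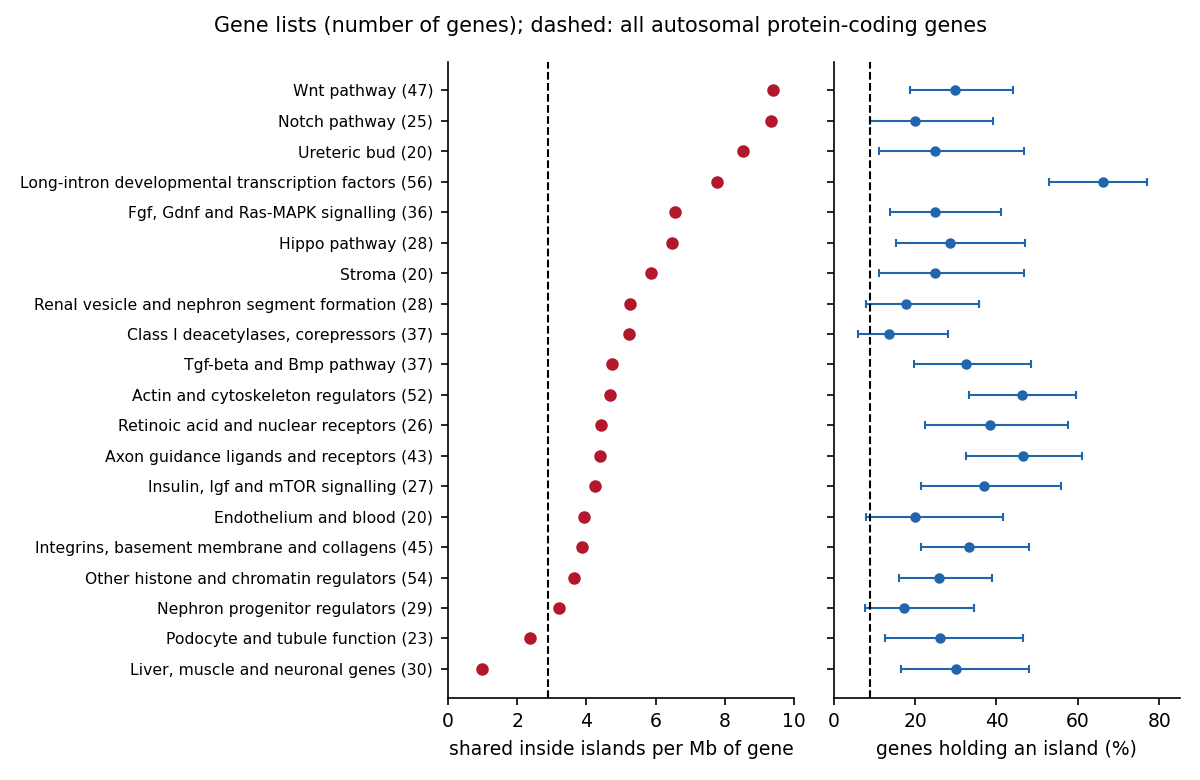
The 20 gene lists, with the number of genes in the annotation in brackets; left, shared inside islands per Mb of gene, right, percent of genes holding an island with 95% Wilson intervals, dashed lines showing all autosomal protein-coding genes (2.90 per Mb and 8.92%). Wnt and Notch genes lie at 9.39 and 9.34 per Mb, and liver, muscle and neuronal genes at 0.974.

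The 10 lowest Hdac1 values included 9 listed as 0. These were in Mpdz, a PDZ scaffold of cell junctions, Cacng4, a channel subunit, Npas4, an activity-induced transcription factor, Camta1, a calmodulin-binding activator, Phf21b, Golga7b, Cdh23, Erich1 and Celf4, an RNA-binding protein. Baz1a, a chromatin remodeller subunit, followed with 4.35e-292. Only those of Npas4 and Golga7b covered an annotated start. The genes Mpdz, Cacng4, Erich1, Celf4 and Baz1a were not in the table of starts, so a start of their own could not be seen. The Mpdz island at chr4:81329201-81331400 and the Cacng4 island at chr11:107783401-107785600 were listed as 0 for Hdac2 as well. Next in the Hdac2 list were Slc6a17, a vesicular transporter, with 3.94e-163, Zfp420, a zinc-finger gene, with 3.85e-142, Them7 with 3.04e-104, Arhgef33 with 5.48e-104 and Camta1 with 3.26e-103. Cblb, a ubiquitin ligase gene, and Ide, which encodes insulin-degrading enzyme, were among the 10 lowest Hdac2 values, 2.40e-95 and 2.59e-76, with more moderate Hdac1 values of 1.38e-39 and 2.25e-46.

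Several of these islands were narrow and had the same outline in both lists. Celf4 (0.6 kb), Arhgef33 (1.2 kb) and Cblb (1.2 kb) began and ended at the same bases for both antibodies, as did 83 islands in all (2.94%), with a median width of 1.2 kb. Of these 83, 7 were in the first decile of Hdac1 value (8.43%), of the 349 islands no wider than 1 kb 15 were (4.30%), and of all shared inside islands 6.23%. The Cdh23 island was 0.8 kb wide and the Erich1 island 0.6 kb. The labels mention a control immunoprecipitation with IgG, which was not analysed here, so whether the strongest narrow islands also appear in IgG was not tested.

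At the width limit, the widest islands of the set measured 4.8 kb, and there were 44. The 3 of lowest Hdac1 value lay in Dyrk2, a kinase gene, with 8.24e-218, Zbtb46, a zinc-finger gene, with 6.40e-200, and Tgfb2 with 5.94e-106. Just beyond the limit, at 5.0 kb, lay islands in Schip1 with 1.85e-226, Bicral with 1.14e-140 and Nr4a2, an orphan nuclear receptor gene, with 2.91e-111. Without the limit there were 3059 shared islands inside genes, 233 of them 5 kb or wider.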

How the data were processed

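Hdac1 and Hdac2 ChIP-seq islands of 1 library each were used. The build was mm10 and the tools included SICER, a caller that merges enriched windows into islands, per the submitters' processing notes, which also name BWA 0.7.5a, SAMtools 1.3.1 and, besides FastQC, bedtools 2.17. SICER settings, background library and read depth were not given in the sources used, so the precision of single values is unknown. In the deposited lists each island has a position and 1 number, either a p-value or a q-value, and which is not stated. Files count starts from 0, and positions are given 1-based.

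Genes, starts and hairpins came from RefSeq (GRCm38.p6), which gave no exons or introns, and no genome sequence was used. Gene ends were those of protein-coding genes. Overlaps, medians and shares were computed with Python 3.11.15, numpy 2.4.6, scipy 1.17.1 and pandas 2.3.3, figures with matplotlib 3.10.9. On simulated islands with the 20665 real genes the code found 426 members, as did bedtools 2.31.1, and it recovered 200 of 200 planted inside islands and called 0 of 200 planted at gene ends. With 1 library per antibody no test was run.

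The set of islands, the gene lists and the comparisons were chosen with earlier results of these data known. Named genes are list members, hosts of the 10 lowest values for each antibody, the 10 genes with most islands, and 3 islands on each side of the width limit. Host genes of miRNAs, genes at printed windows and other islands singled out were chosen after their values were seen. Alternatives were other windows at gene ends, other overlaps, a stricter list, no width limit and the ends of every annotated gene. Added after seeing the data were leaving out islands of the same outline, over a start, or in several genes.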

Additional observations from a re-analysis of the deposited data

How the results depend on the processing

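Over 11 alternatives, 3 of them chosen after seeing the data, 90 values of 11 results kept their size and 28 moved. The difference in Hdac2 value between islands with and without a start changed sign with no width limit and is in neither count. Inside islands overlapped Hdac2 more often than end islands in 9 or 10 of 10 deciles under all 11. In the 3 chosen after seeing the data, islands were left out inside genes only, so those 3 do not compare like sets. Keeping the lower 50% of each list by value left 991 islands in 810 genes, 104 of them listed genes, with a width of 2.4 kb, 76.9% of bases covered, an overlap share of 38.4% and Hdac1 at an end of 58.3% of hosts. The overlap share was 27.4% with 50% of the Hdac1 island covered, 23.0% with 50% of both, 32.9% with no width limit and 29.5% without islands over a start. Coverage was 83.3%, 82.4% and 77.3% under the first 3 of these. Hosts with Hdac1 at an end were 67.4%, 79.3% and 84.3% for windows of 500 bp, 2.5 kb and 5 kb, and 78.2% without islands over a start. The distance to the nearest end was 35.3 kb at 2.5 kb, 40.5 kb at 5 kb and 36.8 kb without islands over a start. Some of these follow from the settings themselves, and other causes were not tested.

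The log10 difference in Hdac2 value between islands with and without a start was 0.072 (500 bp), 0.32 (2.5 kb), 0.31 (5 kb), 0.053 (50% of Hdac1), 0.40 (50% of both), 0.77 (stricter list), 0.028 (ends of every annotated gene) and -0.13 (no width limit), so its sign is not fixed. That for Hdac1 ran from -33.6 to -41.6.

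Of 220 list shares, 3 crossed that of all genes: renal vesicle at 2.5 kb (by -0.909 percentage points), and ureteric bud and endothelium in that stricter list (each -3.92). Of 220 list densities, 10 crossed. In the stricter list these were integrins (-0.0444 per Mb), class I deacetylases (-0.208), other chromatin regulators (-0.0541), podocyte genes (0.0356), ureteric bud and endothelium (each -1.01). The others were renal vesicle at 2.5 kb (-0.589) and 5 kb (-0.326), endothelium at 50% of both (-0.790) and nephron progenitor regulators with ends of every annotated gene (-0.476).

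No paired analysis was possible because each antibody has 1 library. Base composition and motifs of whole islands were not run, since no genome was used. Depth is unknown, so absence of an island from the Hdac2 list does not show absence of Hdac2.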
